A study of Mus musculus with 13 samples.

Results

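The genes described here are 7 genes by which astrocytes handle glutamate, potassium and water and couple to one another: Slc1a2, Slc1a3, Glul, Kcnj10, Aqp4, Gja1 and Gjb6. They were matched by gene symbol, and all 7 were found among the 32285 genes of the count matrices. Their UMIs (unique molecular identifiers, each standing for 1 captured RNA molecule) were counted in single nuclei of whole frozen hippocampus from 13 female mice of the C3B6F1 hybrid strain, with 1 library per mouse. Young mice were fed ad libitum and sampled at 5 months of age (n = 3), and old mice were fed ad libitum and sampled at 24 months (n = 3, numbered 1, 2 and 4 in the labels). Mice on acute dietary restriction were restricted from 20 months and mice on long-term dietary restriction from 5 months, and both were sampled at 24 months (n = 3 and n = 4). The comparisons asked how the genes differed with age under ad libitum feeding, and with each form of restriction at the same old age.

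Astrocytes clear glutamate from the synaptic cleft, turn it into glutamine and return the glutamine to neurons. They also take up potassium released by firing neurons, and they move water at the processes that wrap blood vessels. Neighbouring astrocytes are joined by gap junctions, channels built of connexin proteins, through which ions and small molecules spread. Slc1a2 and Slc1a3 encode the glutamate transporters GLT-1 and GLAST, Glul encodes glutamine synthetase, Kcnj10 the potassium channel Kir4.1, Aqp4 the water channel aquaporin-4, and Gja1 and Gjb6 the connexins 43 and 30.

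By position in GRCm38 (the mm10 build), Slc1a2 (ENSMUSG00000005089) spans chr2:102658659-102790784 on the plus strand and Slc1a3 (ENSMUSG00000005360) chr15:8634124-8710764 on the minus strand. Glul (ENSMUSG00000026473) spans chr1:153899944-153909723 and Kcnj10 (ENSMUSG00000044708) chr1:172341210-172374085, both on the plus strand. Gja1 (ENSMUSG00000050953) spans chr10:56377330-56402513 on the plus strand and Gjb6 (ENSMUSG00000040055) chr14:57123303-57133611 on the minus strand. Gm13872 and AC133525.2 overlap Slc1a2 and Aqp4 on the opposite strand, Gm37310 overlaps Slc1a3 on the same strand, and Mir8114 and Teddm2 overlap Glul. UMIs of Gm13872, AC133525.2 and Teddm2, on the opposite strand, cannot be told apart from those of the members where strand was not used in counting. Whether strand was used is not given in the sources used here. Strand would not separate Gm37310 and Mir8114, which lie on the same strand as the member they overlap.

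The connexin pair had the most similar pattern across cell classes of any genes compared with either (below), so their promoters are shown. Each is a RefSeq window of GRCm38.p6 from 250 bases before the transcription start to 50 after it, 5′ to 3′ on the gene's own strand, with CpG dinucleotides in capitals. The Gja1 window is chr10:56377050-56377349 on the plus strand and the Gjb6 window chr14:57133562-57133861 on the minus strand.
Gja1: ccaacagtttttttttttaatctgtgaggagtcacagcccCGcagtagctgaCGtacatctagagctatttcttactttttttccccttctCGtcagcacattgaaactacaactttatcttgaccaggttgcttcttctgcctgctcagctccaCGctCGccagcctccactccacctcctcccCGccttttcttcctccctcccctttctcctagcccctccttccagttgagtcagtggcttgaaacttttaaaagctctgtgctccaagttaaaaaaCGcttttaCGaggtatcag
Gjb6: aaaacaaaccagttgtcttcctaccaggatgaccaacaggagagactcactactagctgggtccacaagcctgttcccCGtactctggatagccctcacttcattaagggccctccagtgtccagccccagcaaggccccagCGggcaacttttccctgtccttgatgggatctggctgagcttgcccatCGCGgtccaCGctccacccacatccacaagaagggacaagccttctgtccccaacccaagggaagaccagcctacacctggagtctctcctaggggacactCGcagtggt
The Gja1 window held 8 CpG dinucleotides and the Gjb6 window 6, which is 0.544 and 0.255 of the number their base composition would give. The median over 32851 RefSeq promoter windows of the same length was 0.384. The core AACAAT bound by SOX factors was searched on both strands, and 10.7% of all windows held it. The NFI site letters TTGGCA were in 14.1% of windows. The letters of a TATA box, TATAAA, were in 13.6%. Neither the Gja1 nor the Gjb6 window held any of them. Of the 6 members whose window was searched, Slc1a3 had 1 match, to the TATA box letters on the opposite strand.

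Libraries held 38546292 to 80538090 UMIs in 3524 to 12368 barcodes. Of 105427 barcodes that passed filters, 7386 were removed as doublets and 98041 nuclei were kept. They formed 45 clusters, and marker genes that include none of the 7 members named 92424 nuclei in 15 classes. The other 5617 nuclei, in 5 clusters, stayed unnamed. In the matrices, 1358 barcode sequences occurred in more than 1 library, and no pair of libraries shared more than 34, or 0.471% of the smaller library. Astrocyte-like nuclei numbered 7470 in 2 clusters, in which all 20 of 20 astrocyte markers were raised. They ranged from 82 nuclei in old ad libitum replicate 4 to 1456 in long-term restriction replicate 4, so the smallest sums rest on few UMIs. The median astrocyte-like nucleus held 2693.5 UMIs.

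In astrocyte-like nuclei, Slc1a2 was the most abundant of the 7 RNAs. Over the 13 mice it stood at 8821 ± 895 CPM (UMIs of the gene, scaled to 1000000 UMIs of the class in that mouse; mean ± SD, n = 13). Slc1a3 stood at 2633 ± 295 CPM, Glul at 519 ± 112 and Gja1 at 436 ± 123. Aqp4 was at 248 ± 68.5 CPM, Gjb6 at 131 ± 37.9 and Kcnj10 at 91.3 ± 18.3. The spread between mice was narrow for the transporters, with a coefficient of variation of 10.1% for Slc1a2 and 11.2% for Slc1a3. It was 20.0% for Kcnj10, 21.6% for Glul and 27.7% to 29.1% for Aqp4, Gja1 and Gjb6. Nuclear RNA is rich in introns, so levels of different genes were also set against gene length. Whether introns were counted is not given, and if they were not, gene span is not the length that was counted. Per kilobase of gene span, Slc1a2 (66.8 ± 6.775 CPM per kb, SD) and Glul (53.1 ± 11.5) led, followed by Slc1a3 (34.4 ± 3.85). Gja1 (17.3 ± 4.87), Gjb6 (12.7 ± 3.68) and Aqp4 (11.5 ± 3.19) had overlapping SD bands on this scale, and Kcnj10 was lowest (2.78 ± 0.556).

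Detection in single nuclei followed the levels. Shares of nuclei with a UMI were compared after each nucleus was thinned to 1000 UMIs, which left out 64 of 7470 astrocyte-like and 72 of 40480 dentate granule neuron-like nuclei. Granule neurons, whose median nucleus held 6369 UMIs, served as the comparison class, and how much of their level is free RNA was not tested. Slc1a2 was seen in 99.5% of thinned astrocyte-like and 13.4% of granule-like nuclei, and Slc1a3 in 88.2% and 5.57%. Glul was seen in 40.5% and 0.507%, Gja1 in 33.7% and 0.25%, and Aqp4 in 19.7% and 0.23%. Gjb6 was seen in 13.2% and 0.047%, and Kcnj10 in 8.6% and 0.0619%. Without thinning the astrocyte-like shares were 99.9%, 97.7%, 71.4%, 63.5%, 41.0%, 31.7% and 21.5% in the same order of genes. The median thinned astrocyte-like nucleus held UMIs of 3 of the 7 genes, and the median thinned granule-like nucleus of 0.

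Levels across classes are given as a description, without a test, since the classes were made from the same nuclei. Levels were log2 CPM with a prior count of 2, averaged over the mice with at least 20 nuclei of a class. Astrocyte-like nuclei had the highest level of Slc1a2, Glul, Aqp4 and Gja1. They shared the top with another class for the other 3 genes: microglia-like nuclei for Slc1a3, oligodendrocyte-like nuclei for Kcnj10 and fibroblast-like nuclei for Gjb6. The share of a gene's UMIs that lay in astrocyte-like nuclei is given per library, since the libraries differed in makeup. Astrocyte-like nuclei were 1.31% to 22.5% of a library's nuclei, and oligodendrocyte-like nuclei numbered 49 to 186 in the libraries numbered 1 in the labels and 630 to 1657 in the others. Over the 13 libraries that share ran from 73.5% to 92.3% for Gja1 (median 79.4%), 70.2% to 85.9% for Gjb6 (79.8%) and 44.6% to 89.2% for Aqp4 (72.3%). It ran from 20.3% to 84.7% for Slc1a2 (57.9%), 19.6% to 83.1% for Slc1a3 (55.0%), 12.7% to 79.2% for Glul (54.2%) and 5.59% to 76.3% for Kcnj10 (40.3%).

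**Figure D1:**
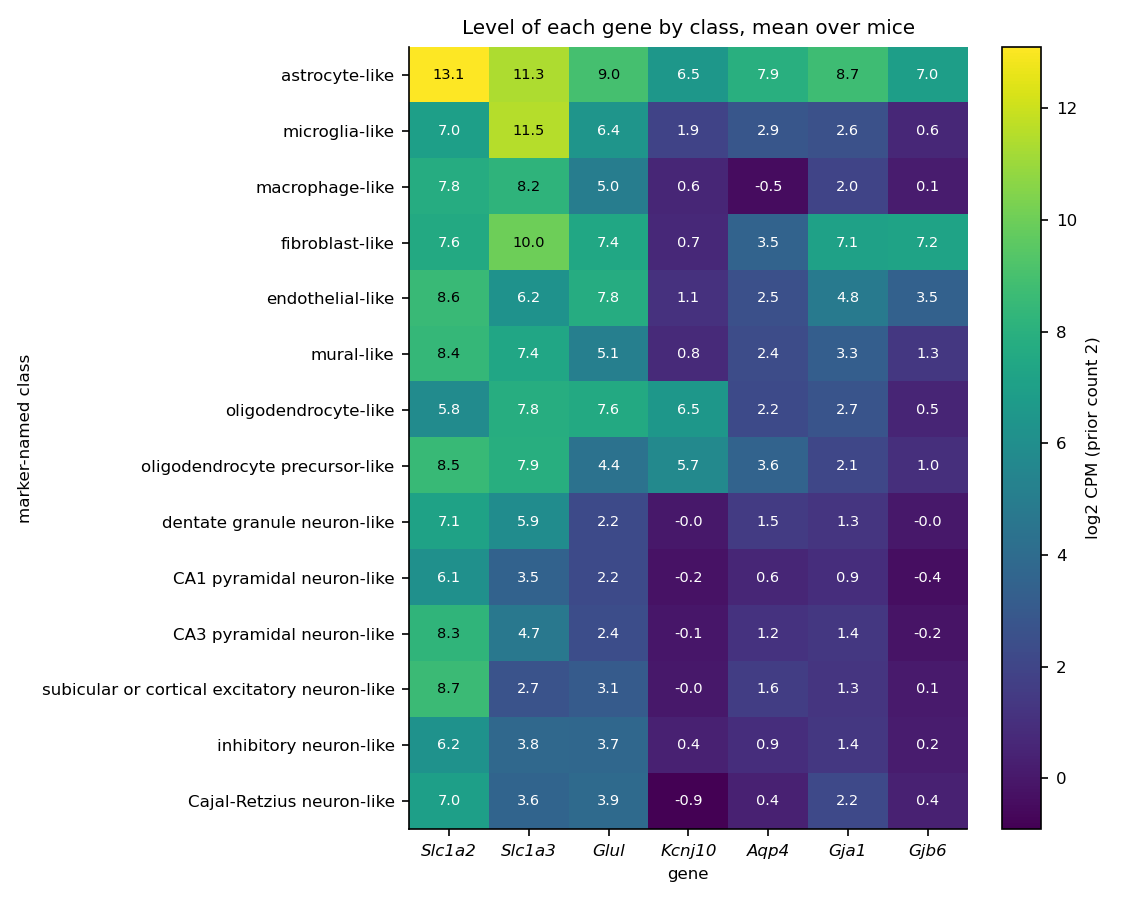
Mean log2 CPM (prior count 2) of the 7 genes (columns) in 14 marker-named classes (rows), averaged over mice with at least 20 nuclei of the class. Gja1, Gjb6 and Aqp4 are near or under 4 in most other classes, Slc1a3 is as high in microglia-like (11.53) as in astrocyte-like nuclei (11.35), and Kcnj10 is shared with oligodendrocyte-like nuclei (6.497 and 6.496).

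The 2 glutamate transporters differed in where else they were found. Slc1a3 was at 3030 ± 665 CPM (SD, n = 13) in microglia-like nuclei, against 2633 ± 295 in astrocyte-like nuclei, and was the higher of both in 9 of 13 mice. On the log2 scale these levels, 11.53 ± 0.34 and 11.35 ± 0.18, were not separated by their spread. A UMI of Slc1a3 was present in 79.5% of microglia-like nuclei thinned to 1000 UMIs, of which 155 of 1645 were too shallow to enter. Slc1a2 was at 161 ± 110 CPM in the same microglia-like nuclei. For each UMI of Slc1a3 there were 3.39 of Slc1a2 in astrocyte-like nuclei and 0.05225 in microglia-like nuclei. Fibroblast-like nuclei had the next level of Slc1a3, at 1098 ± 390 CPM (n = 10), lower than astrocyte-like nuclei in 10 of 10 mice. This came from 1 of the 2 fibroblast-like clusters. In cluster 29 (572 nuclei, with Slc6a20a, Ranbp3l and Bmp6 among its leading genes) Slc1a3 was at 2005 ± 492 CPM (n = 7), and in cluster 40 (283 nuclei, led by Bnc2 and Adamtsl3) at 35.8 ± 31.65 (n = 6).

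Slc1a2 outside astrocytes was spread over vascular, precursor and excitatory neuron classes. Endothelial-like nuclei held 574 ± 590 CPM (SD, n = 9) and mural-like nuclei 452 ± 317 (n = 9), from 531 and 389 UMIs in all. The ranges over mice were 99.5 to 2006 and 71.2 to 1035 CPM, and in both classes the highest mouse was young replicate 1. Subicular or cortical excitatory neuron-like nuclei held 409 ± 74.0 CPM (n = 13) and CA3 pyramidal neuron-like nuclei 311 ± 32.8 (n = 12), with ranges over mice that overlapped. Granule-like nuclei held 141 ± 8.11 CPM (n = 13), and the subicular or cortical level was above it in 13 of 13 mice. CA1 pyramidal neuron-like nuclei, at 69.8 ± 7.07 CPM, were below the granule-like level in 13 of 13. After thinning to 1000 UMIs, 27.3% of subicular or cortical and 24.4% of CA3-like nuclei held a UMI of Slc1a2, against 13.4% of granule-like and 6.69% of CA1-like nuclei. Of the 14 classes, oligodendrocyte-like nuclei had the lowest Slc1a2, a pooled 56.05 CPM (5.84 ± 0.45 log2 CPM) from 1162 UMIs. How much of the granule-like, CA1-like and oligodendrocyte-like level is free RNA was not tested. Among the subicular or cortical clusters, Slc1a2 ranged from 82.6 ± 27.3 CPM (n = 13) in cluster 18 to 853 ± 103 (n = 13) in cluster 25 and 910 ± 137 (n = 9) in cluster 36. The latter clusters had Vwc2l, Rmst and Hs3st4 among their leading genes. The ratio of the transporters differed among neurons. For each UMI of Slc1a3, subicular or cortical nuclei held 57.8 UMIs of Slc1a2, CA3-like nuclei 11.5, CA1-like nuclei 6.57 and granule-like nuclei 2.33, the last below the 3.39 of astrocyte-like nuclei. Granule-like nuclei held 60.6 ± 6.73 CPM of Slc1a3, above CA1-like nuclei (12.1 ± 6.75) in 13 of 13 mice. Oligodendrocyte precursor-like nuclei carried both transporters, with 3816 UMIs of Slc1a2 and 2488 of Slc1a3 over all mice. On the log2 scale the SD bands of each class and the next in order overlapped from subicular or cortical nuclei (8.66) down, so that only astrocyte-like nuclei (13.10) stood clear for Slc1a2.

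**Figure D2:**
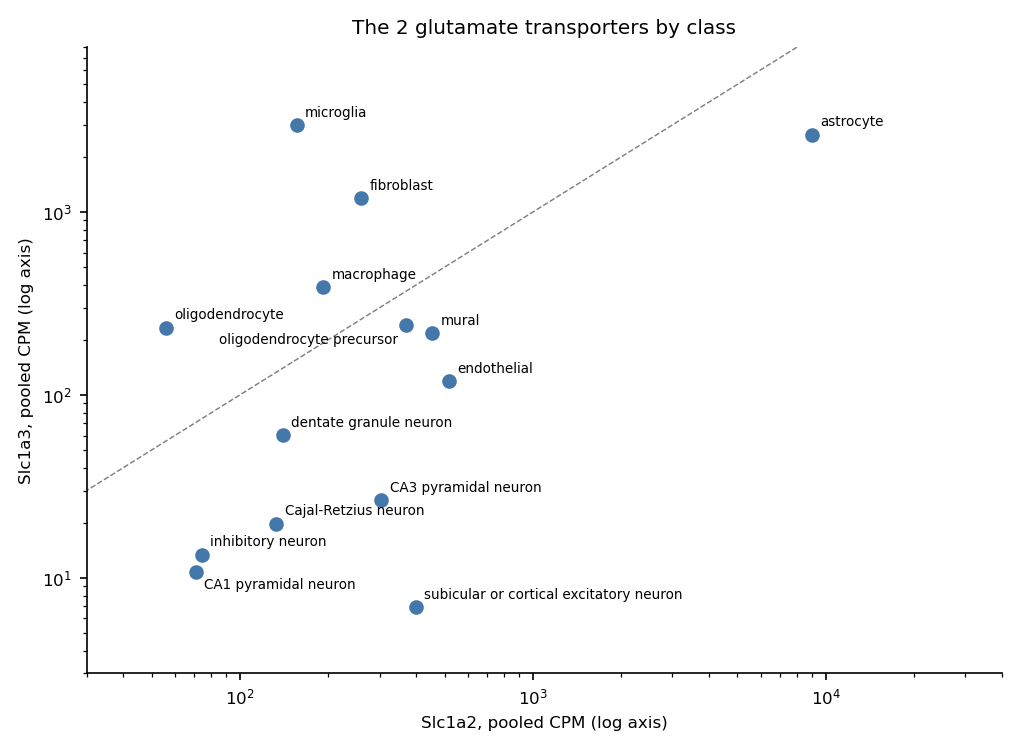
CPM over all mice of Slc1a2 (horizontal, log axis) and Slc1a3 (vertical, log axis), 1 point per class, with equal levels on the dashed line. Microglia-like nuclei lie far above the line, subicular or cortical excitatory neuron-like nuclei far below it, and astrocyte-like nuclei are high for both.

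Glul, which makes glutamine from glutamate and ammonia, was lower outside astrocytes but spread over several glial and vascular classes. Endothelial-like nuclei were at 7.76 ± 0.33 log2 CPM (n = 9), oligodendrocyte-like at 7.60 ± 0.44 (n = 13) and fibroblast-like at 7.41 ± 0.85 (n = 10), and these neighbours in the order overlapped within their SDs. Astrocyte-like nuclei were at 8.99 ± 0.31. Oligodendrocyte-like nuclei held 202 ± 63.7 CPM of Glul and their precursors 22.8 ± 11.03, lower in 13 of 13 mice. Of the 14 classes with at least 20 nuclei in a mouse, the 6 with the lowest Glul, at 3.92 log2 CPM and under, were all neurons. Committed oligodendrocyte precursor-like nuclei, which are not among the 14, held 6 UMIs of Glul, a pooled 14.2 CPM.

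Kcnj10 was found in astrocyte-like nuclei and in both main stages of the oligodendrocyte lineage. Oligodendrocyte-like nuclei held 90.6 ± 13.1 CPM (SD, n = 13) and astrocyte-like nuclei 91.3 ± 18.3, with the oligodendrocyte-like level higher in 5 of 13 mice. Precursor-like nuclei followed at 52.1 ± 7.69 CPM. The other 11 classes with a level, microglia-like nuclei included, were at 1.90 log2 CPM or less. Committed oligodendrocyte precursor-like nuclei (91 in all, with fewer than 20 in every mouse) are not among them and held 19 UMIs of Kcnj10, a pooled 44.9 CPM. Granule-like nuclei held 0.455 ± 0.11 CPM. After thinning, 8.17% of oligodendrocyte-like nuclei held a UMI of Kcnj10, close to the 8.6% of astrocyte-like nuclei. Pooled over libraries, oligodendrocyte-like nuclei held 38.2% of all Kcnj10 UMIs. Aqp4 (ENSMUSG00000024411, chr18:15389496-15410982 of GRCm38, minus strand), by contrast, was at 7.91 ± 0.38 log2 CPM in astrocyte-like nuclei and next at 3.57 ± 1.01 in precursor-like nuclei. On this scale it was the widest gap to the next class of the 7 genes beside that of Slc1a2 (4.34 and 4.44). By mean CPM, mural-like (19.2 ± 21.3, n = 9), fibroblast-like (16.3 ± 11.6, n = 10) and endothelial-like nuclei (15.3 ± 17.6, n = 9) stood above precursor-like nuclei (13.8 ± 8.32). These 4 overlapped within their SDs.

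The connexin RNAs were highest in astrocyte-like and fibroblast-like nuclei. Gja1 was at 8.73 ± 0.35 log2 CPM in astrocyte-like and 7.10 ± 1.11 in fibroblast-like nuclei (n = 13 and n = 10). Gjb6 was at 6.96 ± 0.53 and 7.23 ± 0.67, which overlapped, and was higher in fibroblast-like nuclei in 7 of 10 mice. Fibroblast-like nuclei held 1.01 UMIs of Gja1 for each UMI of Gjb6, against 3.2 in astrocyte-like nuclei. In the other named classes with at least 1 UMI of Gjb6 the ratio was 3.11 to 8, from few UMIs. Endothelial-like nuclei came next for both, with 52.2 ± 43.2 CPM of Gja1 and 17.6 ± 16.5 of Gjb6 (SD, n = 9), from 48 and 15 UMIs in all. Mural-like nuclei held 32.5 ± 38.6 CPM of Gja1 and 8.48 ± 11.5 of Gjb6 (n = 9), from 29 and 7 UMIs, and in both classes the range over mice began at 0. Cluster 29 held more Gjb6 (222 ± 33.4 CPM, n = 7) than cluster 40 (79.9 ± 40.2, n = 6). In every neuronal class Gja1 was at or under 2.16 log2 CPM and Gjb6 at or under 0.38.

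Genes with the most similar pattern over 14 classes were sought among 9236 genes, by Pearson's r of mean log2 CPM. The points share libraries and depth, so r is given as a description. Gja1 and Gjb6 were each other's closest (r = 0.976). After them came Sdc4 (0.947) and Fzd2 (0.941) for Gja1, and Tfcp2l1 (0.963) and Fzd2 (0.958) for Gjb6. Acsbg1 (0.9735), Fgfr3 (0.955) and Gfap (0.948) were closest to Aqp4. Nkx2-2os (0.960), Cmtm5 (0.955) and Hepacam (0.944) were closest to Kcnj10, and Prdx1 (0.943), Cdkn1b (0.928) and Nde1 (0.923) to Glul. Crlf3 (0.914), Slc8b1 (0.911) and Atad2b (0.907) were closest to Slc1a3. For Slc1a2 they were Gm13872 (0.898), which overlaps it on the opposite strand, Prdx6 (0.8935) and Rasa2 (0.885). Slc1a2 and Slc1a3 themselves had r = 0.403, and Kcnj10 and Gjb6 had the lowest r among the members (0.357).

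The members also differed between the 2 astrocyte-like clusters, which held 6617 and 853 nuclei. The clusters were made from other genes of the same nuclei, so this is a description. Aqp4 was at 661 CPM in the smaller and 195 in the larger cluster, and was higher in the smaller in 13 of 13 mice. Gfap, the intermediate filament of astrocytes, had the same direction (410.5 against 97.8 CPM, 13 of 13), as did Tnc (537 against 71.1, 13 of 13), Id3 (442 against 90.5, 13 of 13) and Cd44 (75.0 against 4.05, 12 of 13). Slc1a3 was lower in the smaller cluster, at 2013 against 2743 CPM, in 13 of 13 mice. Slc1a2 (8142 against 9119 CPM), Kcnj10 (77.3 against 95.7) and Gjb6 (100.9 against 143) were higher in the smaller cluster in 1, 1 and 2 of 13 mice. Gja1 (447 against 440 CPM, 7 of 13) and Glul (585 against 538, 9 of 13) showed no common direction. The smaller cluster made up 8.43%, 6.24% and 9.87% of astrocyte-like nuclei in the young, 12.5%, 11.1% and 28.0% in the old ad libitum, 10.3% to 16.1% in the acute restriction and 10.3% to 22.1% in the long-term restriction libraries. It was thus a larger share in each old ad libitum library than in any young one, from as few as 23 nuclei.

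**Figure D3:**
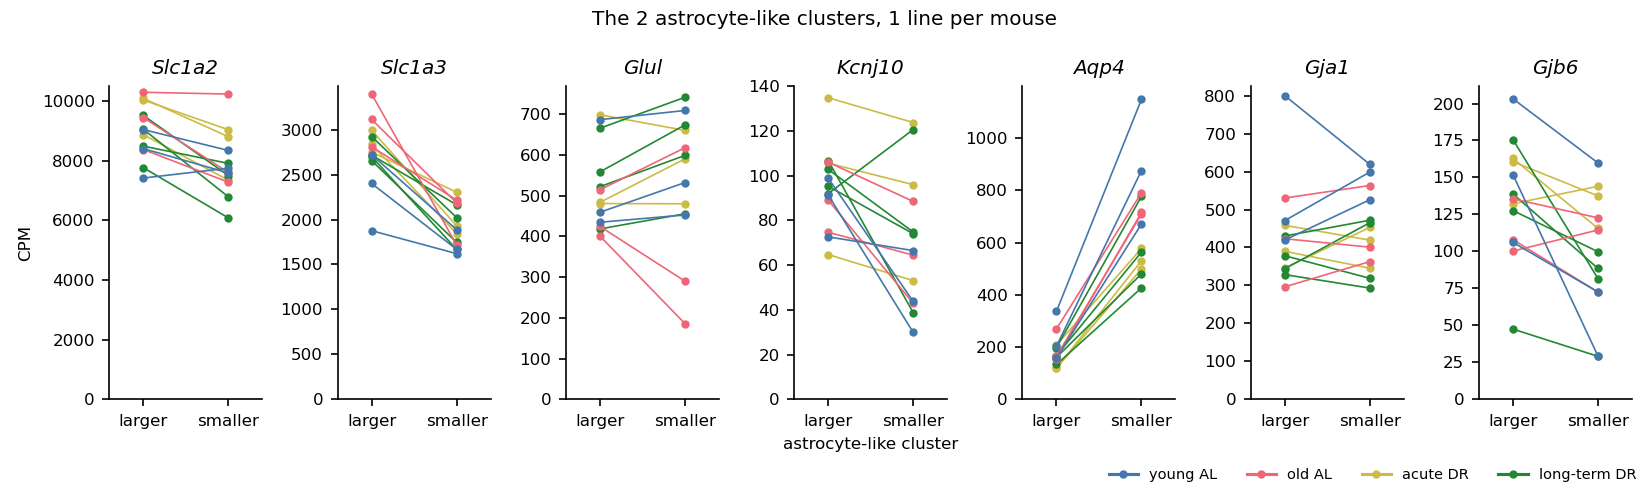
CPM of each gene in the larger (left) and smaller (right) astrocyte-like cluster, 1 line per mouse, coloured by group (AL, ad libitum; DR, dietary restriction). Aqp4 rises along every line, Slc1a3 falls along every line, and the lines of Gja1 and Glul go both ways.

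Among mice, the libraries numbered 1 in the labels, 1 in each group, stood apart. Slc1a2, Glul, Aqp4, Gja1 and Gjb6 were highest in library 1 of the group in 4 of 4 groups, and Slc1a3 and Kcnj10 in 2 of 4. The share of all genes with this pattern was not counted, so it is not shown to be particular to these genes. For Gja1 the young values were 785 CPM in replicate 1 and 427 and 485 in replicates 2 and 3, and the old ad libitum values were 534 in replicate 1 and 305 and 417 in replicates 2 and 4. Acute restriction gave 455, 386 and 364 CPM of Gja1 and long-term restriction 436, 325, 372 and 372, in the order of replicates. When the fit also held a term for number 1 beside the groups, edgeR's quasi-likelihood test called Aqp4 (log2 difference 0.52, adjusted p = 0.000609), Glul (0.49, adjusted p = 0.000415) and Gja1 (0.49, adjusted p = 0.0012) as higher in libraries numbered 1. Kcnj10 (0.31), Gjb6 (0.45), Slc1a2 (0.18) and Slc1a3 (0.09) were not called. The term called 10.1% of the 11513 genes tested, so 3 of 7 members lies above that share. What the number stands for is not given in the labels. These libraries also held fewer oligodendrocyte-like nuclei than any other (49 to 186 against 630 to 1657), and the part of this difference in makeup was not tested.

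**Figure D4:**
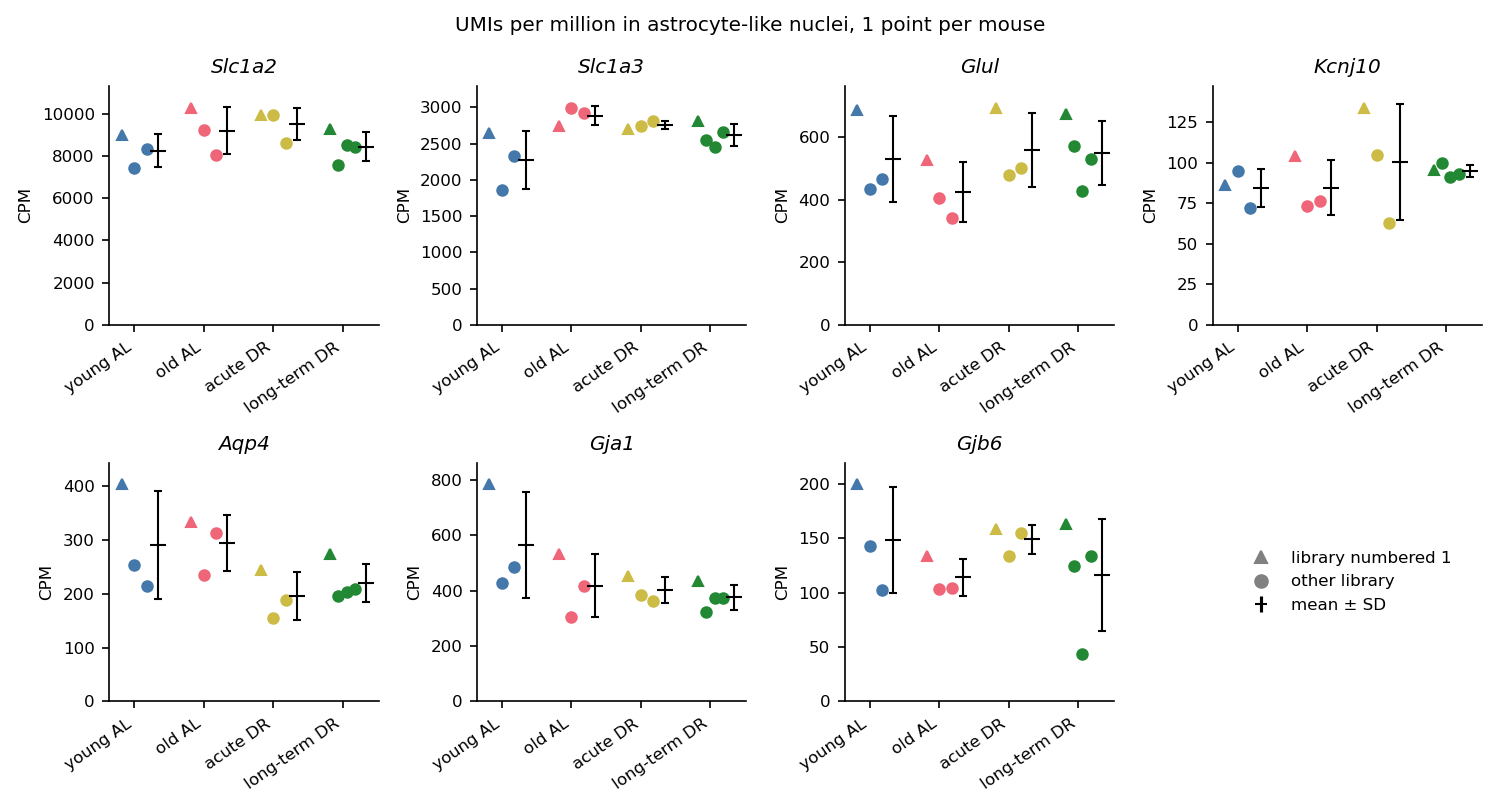
CPM of each gene in astrocyte-like nuclei, 1 point per mouse, by group, with triangles for libraries numbered 1 and black bars for the mean ± SD of each group. Triangles top all 4 groups for Slc1a2, Glul, Aqp4, Gja1 and Gjb6, and in the 4 comparisons tested the groups overlap except for Slc1a3 between young and old ad libitum mice.

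Ageing was tested as old against young mice, both fed ad libitum. Sums of raw counts per mouse were tested with edgeR over all genes of the class, with Benjamini-Hochberg adjustment, and a gene was called at an adjusted p under 0.05. Of the 7 members, 0 were called with age in astrocyte-like nuclei by edgeR and 0 by DESeq2. Of all genes tested there, edgeR called 0.278%. An unadjusted p under 0.05 was found for 1 of the 7 members and for 14.5% of all genes tested. Slc1a3 was at 2652, 1857 and 2322 CPM in the young and at 2735, 2994 and 2926 in the old mice. The 3 old mice lay above the 3 young ones, as they or their reverse did for 17.8% of genes tested, and young replicate 1 came close to the old. The log2 fold change was 0.35 ± 0.11 (SE; 95% interval 0.12 to 0.59, edgeR adjusted p = 0.182). Within the libraries numbered 1 (1 mouse against 1) the log2 ratio was 0.04, and among the others (2 against 2) it was 0.50.

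The connexins and Glul had lower means in old mice, with groups that overlapped. Gja1 averaged 419 ± 115 CPM in old and 566 ± 192 in young mice, a log2 fold change of -0.40 (95% interval -0.88 to 0.09, edgeR adjusted p = 0.458). Gjb6 was at 134, 103 and 104 CPM in old and 200, 143 and 102 in young mice, a log2 fold change of -0.31 (-1.06 to 0.45). Glul was at 527, 407 and 341 CPM in old and 688, 436 and 467 in young mice (-0.27, interval -0.73 to 0.19). Young replicate 1 was the highest of these 6 mice for all 3 genes, and without it the log2 fold changes were -0.109 for Gja1, -0.0437 for Gjb6 and -0.0534 for Glul. Old replicate 1, the highest old mouse for all 3 genes, stayed in that fit and lay below young replicate 1. Over 27 alternatives the values ran from -0.916 to -0.109 for Gja1, -0.523 to -0.0437 for Gjb6 and -0.507 to 0.00229 for Glul. Slc1a2 averaged 9192 ± 1109 CPM in old and 8253 ± 774 in young mice (0.17, interval -0.08 to 0.43). Aqp4 (294 ± 52.2 against 290 ± 100 CPM, log2 fold change 0.04) and Kcnj10 (84.5 ± 16.9 against 84.4 ± 11.6, log2 fold change 0.09) had nearly equal means, with intervals of -0.45 to 0.54 and -0.38 to 0.57. The smaller cluster, in which Aqp4 is higher, was a larger share of the old nuclei. In the larger cluster alone the log2 fold change of Aqp4 with age was -0.132 (edgeR adjusted p = 0.926, an alternative chosen after seeing the data). The part of cluster makeup in the value of Aqp4 was not tested. The median log2 fold change of the 7 was 0.04, and that of all genes tested was -0.05. In counts simulated for this comparison, edgeR called 0% of 1.5-fold, 25% of 2-fold and 85.5% of 4-fold changes among 11513 genes. The changed genes were drawn at random from these, so the rates are not those of the 7 members.

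Depth and summed marker levels of some other cell types moved with age in these nuclei. The median astrocyte-like nucleus held 1619 to 2524 UMIs in young and 2852 to 5022.5 in old ad libitum libraries. The summed level of the 10 granule neuron markers in astrocyte-like nuclei was 2120 to 2540 CPM in young and 2958 to 3223 in old ad libitum mice, with at most 2 of the 10 at 0 in any of these libraries. The groups also did not overlap for inhibitory neuron markers (237 to 330 CPM in young, 401 to 617 in old), CA1 (114 to 173, 180 to 371) and CA3 markers (649 to 753, 783 to 906). The same held for markers of oligodendrocyte precursors (3207 to 3990, 4181 to 4373) and of committed precursors (860 to 1012, 1039 to 1114). Sox6 of the precursor list and Tcf7l2 of the committed precursor list were also among the leading genes of the larger astrocyte-like cluster. Macrophage markers were lower in old mice (7.33 to 12.8 CPM in young, 4.01 to 5.17 in old). Of these 8 markers, 4 to 5 were at 0 in young and 4 to 7 in old libraries. The ranges of all other marker lists examined overlapped between young and old mice, and 17.8% of single genes tested did not overlap. Whether the RNA of the lists named here came from other cells, and its part in the differences with age, were not tested. With median UMIs per nucleus as a covariate, the log2 fold change of Slc1a3 was 0.30 (edgeR adjusted p = 0.67).

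For acute restriction, restricted and ad libitum mice of 24 months were set against each other. In astrocyte-like nuclei edgeR called 0 of 7 members and DESeq2 called 0, while edgeR called 0.0261% of all genes. An unadjusted p under 0.05 was found for 6.01% of all genes tested and for 1 member. That member was Aqp4, at 244, 155 and 188 CPM under acute restriction and 334, 235 and 313 in ad libitum mice. Replicate 1 of the restricted mice overlapped the lowest ad libitum mouse. The log2 fold change was -0.58 ± 0.23 (SE; 95% interval -1.08 to -0.09, edgeR adjusted p = 0.728). Within the libraries numbered 1 the log2 ratio of Aqp4 was -0.45, and among the others it was -0.67. With only the larger astrocyte-like cluster, an alternative added after the data were seen, it was -0.49 (edgeR adjusted p = 0.937).

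Glul averaged 559 ± 118 CPM under acute restriction and 425 ± 94.5 in ad libitum mice, a log2 fold change of 0.36 (95% interval -0.10 to 0.82, edgeR adjusted p = 0.907). Gjb6 averaged 149 ± 13.5 and 114 ± 17.4 CPM (0.34, interval -0.41 to 1.09). Kcnj10 was at 134, 105 and 62.8 CPM under acute restriction, the widest spread of any group for this gene, and at 104, 73.4 and 76.2 in ad libitum mice (log2 fold change 0.17, interval -0.30 to 0.64). Slc1a2 (0.05), Slc1a3 (-0.06) and Gja1 (-0.08) had log2 fold changes close to 0, with intervals of -0.20 to 0.31, -0.29 to 0.18 and -0.56 to 0.41. All 7 genes overlapped between these groups, and 12.8% of genes tested did not. Among summed markers of other cell types in astrocyte-like nuclei, those of subicular or cortical excitatory neurons were at 2301 to 2379 CPM under acute restriction and 2413 to 2529 in ad libitum mice, with at most 3 of the 11 at 0. Macrophage markers were at 5.46 to 8.90 and 4.01 to 5.17 CPM, with 4 to 7 of the 8 at 0. Neither pair of ranges overlapped, and their part in these values was not tested. The ranges of all other marker lists examined did overlap, so these lists were picked for not overlapping. Rorb, of the subicular or cortical list, was also among the leading genes of both astrocyte-like clusters.

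Long-term restriction, begun at 5 months, was compared with the same ad libitum mice. In astrocyte-like nuclei edgeR called 0 of 7 members and 0% of all genes, DESeq2 called 0 members, and 0 members had an unadjusted p under 0.05. Aqp4 was at 273, 196, 202 and 209 CPM, against 334, 235 and 313 in ad libitum mice, a log2 fold change of -0.38 (95% interval -0.84 to 0.08, edgeR adjusted p = 0.978). Glul was at 675, 571, 427 and 530 CPM against 527, 407 and 341 (0.38, interval -0.06 to 0.81). Both had the same sign as under acute restriction, but the comparisons share the 3 ad libitum mice. Gjb6 was at 163, 125, 43.2 and 134 CPM, and the low value, in replicate 3, came from 19 UMIs in 122 nuclei. Slc1a2 (-0.09), Slc1a3 (-0.11), Gja1 (-0.14), Kcnj10 (0.13) and Gjb6 (0.09) had log2 fold changes within 0.14 of 0. All 7 overlapped between the groups, where 7% of genes tested did not. The summed level of 12 oligodendrocyte markers in astrocyte-like nuclei did not overlap, at 143 to 216 CPM under long-term restriction and 221 to 346 in ad libitum mice. Its part in these values was not tested. The ranges of all other marker lists examined did overlap, so this list was picked for not overlapping.

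Long-term against acute restriction compares groups that share no mouse. In astrocyte-like nuclei edgeR called 0 of 7 members and 0% of all genes, DESeq2 called 0 members, and 0 members had an unadjusted p under 0.05. Log2 fold changes ran from -0.25 for Gjb6 to 0.20 for Aqp4, and the widest interval, that of Gjb6, was -0.92 to 0.42. Between them lay Slc1a2 (-0.14), Gja1 (-0.06), Slc1a3 (-0.05), Kcnj10 (-0.04) and Glul (0.01). All 7 overlapped, where 4.82% of genes tested did not.

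**Figure D5:**
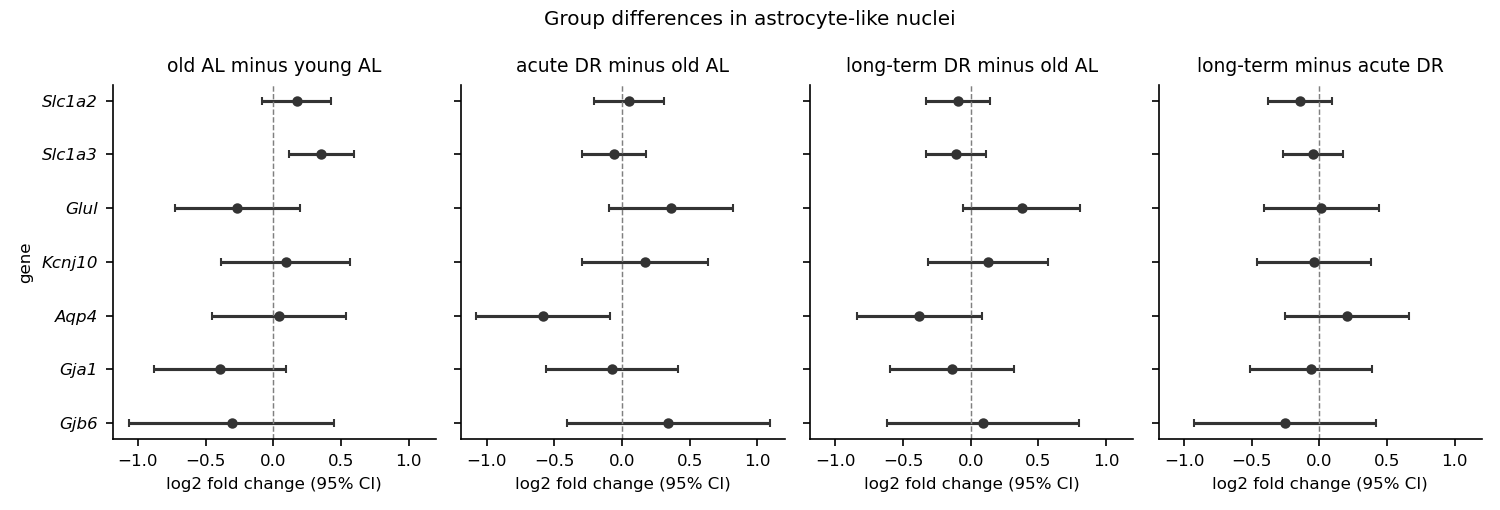
Log2 fold change with its 95% interval from edgeR for each gene in astrocyte-like nuclei, in the 4 comparisons (AL, ad libitum; DR, dietary restriction). Intervals leave out 0 for Slc1a3 with age (0.12 to 0.59) and for Aqp4 under acute restriction (-1.08 to -0.09), and neither was called after adjustment.

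In the 10 other classes tested, 42 pairs of gene and class passed the filter on low counts. Across the 4 comparisons edgeR called 0 of 168 tests of members, with 21 unadjusted p-values under 0.05 where 7.54% of all tests of genes in these classes had one. With age it was 9 of 42 members' tests and 18% of all tests, under long-term restriction 8 of 42 and 4.56%, under acute restriction 3 of 42 and 4.71%, and between the forms of restriction 1 of 42 and 2.94%. Over all genes in these classes edgeR called 1.1% of pairs of gene and class with age, 0.107% under acute restriction, 0.0139% under long-term restriction and 0.00397% between the forms of restriction. DESeq2 called 1 member with age. In granule-like nuclei, Slc1a3 averaged 63.9 CPM in old and 52.0 in young mice (log2 fold change 0.45 ± 0.15, SE; edgeR adjusted p = 0.0881) and Slc1a2 149.8 and 135 (0.31 ± 0.10; adjusted p = 0.0814). Precursor-like nuclei had 272 and 209.5 CPM of Slc1a3 (0.44 ± 0.14; edgeR adjusted p = 0.108). Each of these 3 was called when number 1 was a term of the fit.

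Gja1 had its lowest p-values outside astrocytes, at levels of a few UMIs. In oligodendrocyte-like nuclei it averaged 2.53 CPM in old and 11.3 in young mice (log2 fold change -2.04 ± 0.63, SE, edgeR adjusted p = 0.0744). Sums of this class held 1 to 35 UMIs of Gja1 over all 13 mice, a range that includes the restricted mice. With age Gja1 was called by edgeR with doublets kept (adjusted p = 0.031) and without the filter on low counts (0.014). The same held with only the young and old ad libitum mice (0.0321), with the replicate block (0.0144) and without long-term replicate 4 (0.03). In CA1-like, inhibitory neuron-like and subicular or cortical nuclei the log2 fold change with age was -1.80, -1.90 and -1.76. Under long-term restriction Gja1 in oligodendrocyte-like nuclei was called without the filter on low counts (log2 fold change 1.78, edgeR adjusted p = 0.0338). That comparison shares the old ad libitum mice with ageing. Granule-like nuclei held 2.19 ± 1.33 CPM of Gja1 (SD, n = 13). The part of free RNA in these differences was not tested.

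Whether members responded differently in astrocyte-like and other nuclei was tested directly, with an interaction of class and group. Against oligodendrocyte-like nuclei edgeR called 0 of 7 members in each comparison, where it called 0.0631% of genes with age, 0.0395% under long-term restriction, 0.158% under acute restriction and 0% between the forms of restriction. Against granule-like nuclei it also called 0 of 7 in each, where it called 0.192%, 0.012%, 0.03% and 0.012% in the same order. Gja1 alone had unadjusted p-values under 0.05, against oligodendrocyte-like nuclei: 0.026 with age (difference of log2 fold changes 1.71) and 0.0102 under long-term restriction (-1.75). Its adjusted p was 0.863 and 0.648. DESeq2 was not used for these differences.

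Other genes of the same functions were read from 5 lists with 62 genes, of which 46 passed the filter in astrocyte-like nuclei. With age edgeR called 1 of them, C4b, a complement component raised in reactive astrocytes. C4b was at 45.6, 41.6 and 42.2 CPM in young and 94.2, 193 and 256.5 in old mice, a log2 fold change of 1.96 ± 0.28 (SE; edgeR adjusted p = 0.0054). Of the 46, 11 had an unadjusted p under 0.05, as did 14.5% of all genes tested, and DESeq2 called 3 (C4b, Stat3 and Utrn). Over all genes tested edgeR called 0.278%. C4b was not called with nuclei thinned to 1000 UMIs, with only the young and old ad libitum mice in the fit, or without young replicate 3. Under acute restriction, long-term restriction and between them edgeR called 0 of 46, with 5, 4 and 6 unadjusted p-values under 0.05 (6.01%, 5.32% and 2.95% over all genes tested in the order acute, long-term, between), and DESeq2 called 0 in each.

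In the glutamate cycle list, 14 of 17 genes were tested and edgeR called 0 in any comparison. Slc38a2, a glutamine transporter, had a log2 fold change of 0.97 ± 0.29 under long-term restriction (edgeR adjusted p = 0.894) and 0.59 ± 0.30 under acute restriction. Slc38a3, also a glutamine transporter, was at -0.44 and the cystine-glutamate exchanger Slc7a11 at 0.44 under long-term restriction. The median of the list with age was 0.04. For potassium and ion transport, 12 of 12 genes were tested and edgeR called 0. The chloride channel Clcn2 (-0.71) and the sodium pump subunit Atp1b1 (-0.55) had the largest log2 fold changes with age, and the list median was -0.07. Under acute restriction the potassium channel Kcnk10 was at -0.64.

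For water channels and the perivascular endfoot, 11 of 13 genes were tested and edgeR called 0. With age the log2 fold changes of the endfoot anchoring genes Utrn and Dmd were 0.48 ± 0.12 and 0.36 ± 0.11 (edgeR adjusted p = 0.116 and 0.182), and that of the aquaporin Aqp9 was -0.66 ± 0.23. Utrn was called with age by DESeq2 (log2 fold change 0.49, adjusted p = 0.0307), and by edgeR without the filter on low counts (adjusted p = 0.0417), with the replicate block (0.0493) and with a term for number 1 (0.0399). The list median was 0.08, against -0.05 over all genes. Hepacam, an adhesion protein of astrocytes, was at 0.29 under acute and 0.31 under long-term restriction, and at -0.34 with age (edgeR adjusted p = 0.232), the last named after its value was seen. Under acute restriction Sntb1, a syntrophin, was at -0.37 and Aqp9 at -0.36, and under long-term restriction Sntb1 was at -0.24 and Agrn, which encodes agrin, at 0.23. Of 12 connexins, pannexins and junction partners, 3 passed the filter and edgeR called 0. In the reactivity list, 6 of 8 genes were tested. Beside C4b, the log2 fold changes with age were 1.03 ± 0.43 for Cd44 and 0.68 ± 0.16 for Stat3 (edgeR adjusted p = 0.2955 and 0.0881), that of Gfap was 0.66 (edgeR adjusted p = 0.227), and the list median was 0.67. Vim (-0.41) and S100b (-0.17), named after their values were seen, had log2 fold changes of the opposite sign. The list median was -0.39 under long-term restriction, 0.09 under acute restriction and -0.35 between them. Over all genes tested it was 0.02, 0.02 and -0.00073 in that order, and edgeR called 0 of the list in each. The smaller astrocyte-like cluster, a larger share of the old ad libitum libraries, held more Cd44, Gfap and C4b (223.5 against 112 CPM). Within the larger cluster alone the log2 fold change of C4b with age was 1.78 (edgeR adjusted p = 0.00118, an alternative chosen after seeing the data). There Cd44 was at 1.77, 6.90 and 3.63 CPM in young and 5.39, 2.37 and 0 in old mice, from at most 19 UMIs, and the groups overlapped. Gfap in the larger cluster was at 104, 54.1 and 63.9 CPM in young and 130, 94.9 and 83.5 in old mice, which overlapped as well. The part of cluster makeup in the fold changes of Cd44, Gfap and C4b with age was not tested.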

How the data were processed

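UMI counts of single nuclei were used as deposited, in 1 filtered matrix per mouse. The submitters' processing notes name Cell Ranger 4.0.0 and mm10; whether introns or strand were used in counting is not given in the sources used here. Barcodes were kept at 500 genes or more and 5% mitochondrial UMIs or less, and the barcodes with the highest doublet scores, 0.8% per 1000 barcodes of the library, were removed. Clustering (scanpy 1.11.5, leidenalg 0.10.2) used 1995 variable genes with the members left out, 30 components, 20 neighbours and resolution 2. A cluster was named where at least 3 markers were raised and the mean log2 fold of the list was at least 1, and "-like" marks that names come from markers. Deposited counts were summed per mouse and class with at least 20 nuclei, and CPM was computed from those sums. Sums were tested in R 4.3.3 with edgeR 4.0.16 (TMM scaling, filterByExpr, robust quasi-likelihood test over the 13 mice), with Benjamini-Hochberg adjustment over all genes of a class. Intervals are 95% confidence intervals of the log2 fold change, estimated from the spread between these mice. DESeq2 1.42.0, other scalings, filters, a replicate block and leaving out each library were alternatives. In counts simulated for astrocyte-like ageing the test recovered the changes at the rates given in the report.

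The labels give 1 library per mouse. With 3 mice against 3, a permutation test cannot go below a two-sided p of 0.10, so none is given. All members were named in each comparison, with called pathway genes and up to 3 uncalled genes per list with the largest change, and for likeness the 3 genes with the highest r among those with a mean of at least 5 log2 CPM in a class. The members and lists were chosen with earlier results of these data known. Some genes of the lists are not reported here by name.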

Additional observations from a re-analysis of the deposited data

Results flagged for a closer look

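Among the 4 long-term restricted mice, Aqp4 in astrocyte-like nuclei was at 273.3 CPM in replicate 1, far above the other 3 mice. Aqp4 was highest in the library numbered 1 in 4 of 4 groups (log2 difference 0.52 for number 1 in a fit with the groups, edgeR adjusted p = 0.000609). Its gap to the nearest of them was 0.833 of the group's whole range, past Dixon's 95% critical value for 4 samples. One group of 4 was examined for each of the 7 genes, and chance alone marks about 1 in 20 such groups.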

How the results depend on the processing

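The 7 fold changes in each of the 4 comparisons were recomputed under 27 alternatives, giving 756 values, of which 39 changed sign and 0 passed the threshold. Some alternatives had little or no room to change a value. A minimum of 50 nuclei removed no astrocyte-like sum, since the smallest held 82. Leaving out a library outside the groups compared acted only through the shared fit. The direction held under every alternative for Slc1a3 with age (0.239 to 0.455 on the log2 scale) and Aqp4 under acute restriction (-0.793 to -0.429). It also held with age for Gja1 (-0.916 to -0.109) and Gjb6 (-0.523 to -0.0437). Under long-term restriction it held for Slc1a3 (-0.18 to -0.0865), Glul (0.216 to 0.587) and Aqp4 (-0.553 to -0.229). Under acute restriction it held for Slc1a3 (-0.128 to -0.024), Glul (0.152 to 0.575) and Gjb6 (0.0573 to 0.577). For long-term against acute restriction it held for Slc1a2 (-0.214 to -0.0836), Aqp4 (0.054 to 0.39) and Gjb6 (-0.451 to -0.0544). With median UMIs per nucleus as a covariate, the log2 fold change with age was -0.0474 for Slc1a2, -0.194 for Kcnj10 and -0.141 for Aqp4; Gja1 was at 0.0912 under long-term and 0.265 under acute restriction, and Glul at -0.0345 for long-term against acute restriction. With the gene length trend removed, values with age were -0.0109 for Slc1a2 and 0.00229 for Glul. With nuclei thinned to 1000 UMIs, Kcnj10 was at -0.146 and Aqp4 at -0.087 with age, Gjb6 at -0.0993 under long-term restriction and Slc1a3 at 0.00417 for long-term against acute restriction. With a term for number 1, Kcnj10 was at 0.00755 for long-term against acute restriction. In 2 alternatives chosen after seeing the data, Aqp4 was at -0.132 with age in the larger cluster only, and Slc1a2 at -0.0826 under acute restriction without the 2 libraries with fewest astrocyte-like nuclei. The causes were not tested.

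Leaving out each library in turn changed the sign of some values. Slc1a2 ranged from -0.229 to 0.00673 under long-term and from -0.0823 to 0.153 under acute restriction, and Glul from -0.119 to 0.201 for long-term against acute restriction. Kcnj10 ranged from -0.16 to 0.251 with age, -0.0232 to 0.386 under long-term restriction, -0.128 to 0.431 under acute restriction and -0.309 to 0.23 between them. Aqp4 ranged from -0.139 to 0.335 with age and Gjb6 from -0.134 to 0.283 under long-term restriction. Gja1 ranged from -0.36 to 0.135 under long-term restriction, -0.294 to 0.2 under acute restriction and -0.164 to 0.0356 between them.

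Members called in other classes with age numbered 0 in the report, 1 with DESeq2, 1 with doublets kept, 2 without a filter on low counts, 2 with only the groups compared, 3 with a term for number 1, and 0 to 1 with a library left out (1 without long-term replicate 3, long-term replicate 4 or young replicate 1). Without the filter, 1 was called under long-term restriction, and 1 difference from oligodendrocyte-like nuclei. Pathway genes called with age numbered 1 in the report, 3 with DESeq2, 3 without the filter, 0 when thinned, 0 with only the groups compared, 4 with a term for number 1, and 0 to 2 with a library left out (0 without young replicate 3, 2 without young replicate 1 or acute replicate 1). Shares of nuclei with a UMI fell with thinning to 99.5%, 88.2%, 40.5%, 8.6%, 19.7%, 33.7% and 13.2% for Slc1a2, Slc1a3, Glul, Kcnj10, Aqp4, Gja1 and Gjb6.

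Libraries numbered 1 deviated together in 6 of 6 pairs (r = 0.256 to 0.536), and those of the other numbers in 3 of 10 (r over 0.1; lowest -0.0842), so the numbers as a whole were not taken as pairing the mice. With the replicate block, 0 members were called in astrocyte-like nuclei, 3 in other classes with age (Gja1 in oligodendrocyte-like nuclei at -2.59, edgeR adjusted p = 0.0144, and Slc1a3 in granule-like and precursor-like nuclei), and 3 pathway genes with age; Kcnj10 (-0.045) and Aqp4 (-0.0204) with age and Gja1 under acute restriction (0.013) changed sign. In astrocyte-like nuclei depth limits Gjb6 and Kcnj10 most, with as few as 19 UMIs in a sum, and in oligodendrocyte-like nuclei Gja1, at 1 to 35 UMIs.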
